A study of Mus musculus with 6 samples.

Results

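The genes described here encode the junctions that join epithelial cells. They were chosen by name, as the probes whose single platform gene symbol is a numbered claudin, *Tjp1*, *Tjp3*, *Ocln*, *Marveld2*, *Marveld3*, *F11r*, *Epcam*, *Cdh1*, *Cdh17*, *Ctnna1*, *Ctnnb1*, *Ctnnd1*, *Jup*, *Dsp*, *Pkp1* to *Pkp4*, or a numbered desmoglein (*Dsg*) or desmocollin (*Dsc*). This gave 44 probes for 43 genes, of 13840 genes with a single-symbol probe. No single-symbol probe named *Dsp*, which was therefore not analysed here. At E13.5, 3 *Id2*-/- and 3 littermate *Id2*+/+ samples of distal midgut were each measured on 1 single-color array. The mutation is in all tissues of the *Id2*-/- embryos, not only in the gut. The study kept *Id2* mutant mice on an inbred and on a mixed background, and the labels state neither which of these the arrays used nor whether a sample is 1 embryo, so the p-values cover the spread of these samples only. *Id2* itself was not analysed here, and the genotypes rest on the labels.

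Tight junctions seal the space between epithelial cells with strands of claudins, occludin and tricellulin, which scaffold proteins of the Tjp (ZO) family tie to the actin cytoskeleton. Adherens junctions hold cells together through classical cadherins, whose tails bind catenins, and desmosomes anchor desmosomal cadherins to keratin filaments through plakoglobin and plakophilins. The midgut endoderm is an epithelium inside a wall of mesenchyme, and the study describes it as pseudostratified before villi form. Which claudins an epithelium makes sets which ions and water pass between its cells.

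Signals are given as log2 of the signal divided by the median of the array, as the authors normalized it, so 0 is the array median. A probe was called above background on an array when its signal-to-noise score was at least 3. A test required 6 unflagged values and a signal over background in all 3 samples of one genotype or the other, which held for 26 junction genes and for 12741 probes in all. The arrays numbered 1 stood apart in both genotypes, at a correlation of 0.984 with each other and of 0.909 to 0.931 with the other 4 arrays. Same-numbered arrays are called a pair below, and differences are *Id2*-/- minus *Id2*+/+. In the pairs numbered 1, 2 and 3 the tested probes as a whole had median differences of 0.35, -0.04 and -0.19, which the pair values of single genes still contain. In a whole piece of gut, fewer cells of a type and less RNA per cell cannot be told apart.

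No junction gene passed the test between the genotypes. In limma with Benjamini-Hochberg adjustment over all 12741 probes, 0 of the 26 were called, at a lowest adjusted p of 1, as were 0.0% of all tested probes. Of the 26, 0 had an unadjusted p under 0.05, against 1.84% of all tested probes, and the methods' t-test on the same values gave 0 as well. With the pair as a block in limma 3 of the 26 were called, namely *Cldn2* and *Tjp3*, lower in *Id2*-/- samples, and *Jup*, higher. That fit gave every probe the same standard error of 0.275, so its p-values do not reflect the spread of the single gene. Of the 26, *Jup* entered the test only through the *Id2*-/- arrays, as did *Ctnna1* and *Ctnnd1*, and *Cldn11* only through the *Id2*+/+ arrays, while the other 22 were above background on all 6 arrays. The block called 2.18% of all tested probes, 1.06% as higher and 1.12% as lower. At an unadjusted p under 0.05 with the block there were 6 of the 26, *Cldn5*, *Ocln* and *Cdh17* being the others, against 6.9% of all tested probes. The 3 calls were lost when quantile normalization was added to the block, where the lowest adjusted p of a junction gene was 0.299. With any 1 pair left out of the block fit, *Cldn2* and *Tjp3* were not called, and *Jup* was called only without pair 3. The ranges of the 3 *Id2*-/- and the 3 *Id2*+/+ arrays overlapped for each of the 26 genes, whereas they did not for 4.02% of all tested probes, 1.29% with *Id2*-/- as the lower.

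The promoter windows of the 3 genes called with the block are shown because the proteins of the Id family bind E proteins, factors whose target is the E box CANNTG, and keep them off DNA. The windows come from RefSeq on GRCm38.p6 and run from 250 bases before to 50 bases from the transcript start, in the direction of the gene. Capitals mark each E box, in which N is any base. The motif reads the same on both strands. The *Cldn2* window is chrX:139800558-139800857 on the plus strand. *Tjp3* has 2 annotated starts, with windows at chr10:81291218-81291517 and chr10:81291532-81291831, both on the minus strand, and *Jup* is at chr11:100397741-100398040 on the minus strand.
Cldn2: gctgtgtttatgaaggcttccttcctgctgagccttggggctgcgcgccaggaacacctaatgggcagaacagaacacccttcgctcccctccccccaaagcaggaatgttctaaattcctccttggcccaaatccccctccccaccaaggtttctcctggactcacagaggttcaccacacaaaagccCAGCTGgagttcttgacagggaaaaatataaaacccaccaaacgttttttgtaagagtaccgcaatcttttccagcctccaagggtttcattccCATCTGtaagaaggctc
Tjp3 downstream start: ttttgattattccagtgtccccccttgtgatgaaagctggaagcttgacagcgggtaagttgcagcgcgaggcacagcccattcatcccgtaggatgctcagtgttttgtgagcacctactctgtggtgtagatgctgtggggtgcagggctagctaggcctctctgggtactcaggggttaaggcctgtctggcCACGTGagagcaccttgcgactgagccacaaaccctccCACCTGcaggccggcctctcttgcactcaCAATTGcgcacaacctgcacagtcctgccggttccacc
Tjp3 upstream start: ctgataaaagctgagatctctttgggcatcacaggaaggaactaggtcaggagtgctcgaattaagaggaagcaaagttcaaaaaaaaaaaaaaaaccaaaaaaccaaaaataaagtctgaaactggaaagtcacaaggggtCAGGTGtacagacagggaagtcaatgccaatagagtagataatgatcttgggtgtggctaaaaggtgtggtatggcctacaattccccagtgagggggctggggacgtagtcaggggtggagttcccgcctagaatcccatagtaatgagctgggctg
Jup: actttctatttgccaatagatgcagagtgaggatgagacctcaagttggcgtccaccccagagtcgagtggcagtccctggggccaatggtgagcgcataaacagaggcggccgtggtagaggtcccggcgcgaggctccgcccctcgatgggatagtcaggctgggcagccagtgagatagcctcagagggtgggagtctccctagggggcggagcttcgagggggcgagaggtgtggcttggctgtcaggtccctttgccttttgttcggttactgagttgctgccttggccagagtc
The *Cldn2* window held 2 E boxes, CAGCTG at 61 bases before the start and then CATCTG at 33 bases after it. The downstream *Tjp3* window held CACGTG at 55 bases before the start, then CACCTG at 17 bases before it, and CAATTG at 12 bases after it. The upstream *Tjp3* window held CAGGTG at 108 bases before its start, and the *Jup* window held none. An E box was found in 72.3% of all 32851 RefSeq windows of this length, and in 18 of the 29 windows of the tested junction genes. A window was matched for 25 of the 43 genes, and 39 windows in all, with none for *Cdh1*, the E-cadherin gene. The E box CAGGTG, which Snail and Zeb repressors of the E-cadherin gene bind, was searched on both strands and was in 20.2% of all windows and in 13 of those 29, where a gene with several starts counts several times. A match describes the letters and says nothing of binding.

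*Cldn2* encodes a claudin that forms pores for cations and water in leaky epithelia such as the embryonic gut and the crypt. Its log2 signal was 1.15, 2.02 and 2.27 on the *Id2*-/- arrays numbered 1, 2 and 3, and 1.54, 3.48 and 3.87 on the *Id2*+/+ arrays. It was lower in all 3 pairs, by a log2 difference of -0.39, -1.46 and -1.60. The lowest *Id2*+/+ array, numbered 1, lay within the range of the *Id2*-/- arrays. The means were 1.81 ± 0.59 in *Id2*-/- and 2.96 ± 1.25 in *Id2*+/+ samples (SD, n = 3), a difference of -1.15 (standard error 0.63, limma adjusted p = 1, and 0.00255 with the block). The difference was -1.86 without the *Id2*+/+ array numbered 1 and -0.70 without the *Id2*+/+ array numbered 3.

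*Tjp3* encodes ZO-3, a scaffold of the tight junction plaque found in epithelia. It gave 0.86, 1.03 and 2.10 on the *Id2*-/- arrays and 1.65, 2.41 and 3.19 on the *Id2*+/+ arrays. It was lower in each pair, by -0.79, -1.39 and -1.09, and only the *Id2*-/- array numbered 3 reached into the *Id2*+/+ range. The difference of the means was -1.09 (standard error 0.49, limma adjusted p = 1, and 0.00582 with the block). *Cldn2*, *Tjp3* and *Pkp2* were the 3 of 26 genes that were lower in all 3 pairs, against 5.64% of all tested probes. *Cldn5* and *Ctnna1* were the 2 that were higher in all 3, against 11.8%. Of these, *Ctnna1* entered the test only through the *Id2*-/- arrays, which favors that direction.

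**Figure D1:**
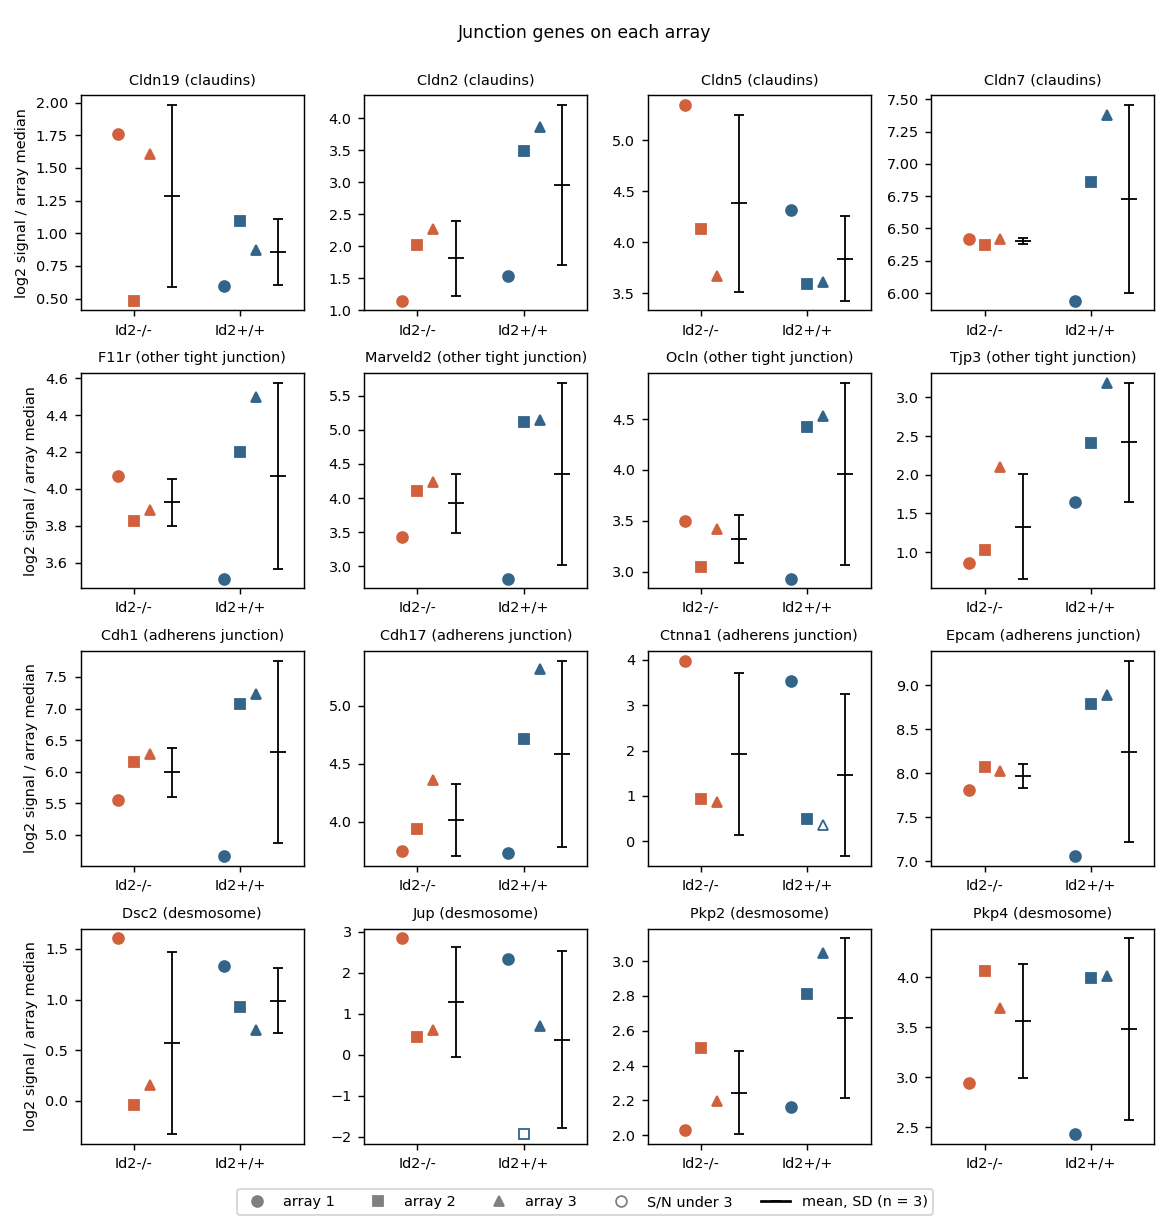
Log2 of the median-normalized signal (vertical axis, a separate scale in each panel) of 16 junction genes on the 3 *Id2*-/- arrays (left) and the 3 *Id2*+/+ arrays (right), with the array number as the symbol, open symbols for a signal-to-noise score under 3, and the mean and SD as bars. For *Cdh1* the *Id2*+/+ array numbered 1 lies at 4.66 and the other 2 *Id2*+/+ arrays at 7.08 and 7.22, on either side of the *Id2*-/- arrays at 5.55 to 6.27.

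Across the junction genes, as across all tested probes, the direction turned with the pair. The *Id2*-/- array was the lower one for 5 of the 26 in pair 1 and for 20 of the 26 in each of pairs 2 and 3. The share of all tested probes that were lower was 14.4% in pair 1, 56.0% in pair 2 and 74.4% in pair 3. The 5 of 26 of pair 1 and the 20 of 26 of pair 3 are thus near that background. The median difference of the 26 genes was 0.50, -0.47 and -0.60 in the 3 pairs, which is 0.16, -0.43 and -0.41 relative to the median of all tested probes. The sequence of higher in pair 1 and lower in pairs 2 and 3 was shown by 14 of the 26 and by 40.1% of all tested probes. The arrays numbered 1 were also left out, an alternative chosen after seeing the data. There 16 of the 26 had an unadjusted p under 0.05 in limma, against 12.5% of all tested probes. *Ctnna1*, which entered the test only through the *Id2*-/- arrays, was among the 16. None of the 26 passed after adjustment (lowest adjusted p = 0.124). Over the genotype means of all 6 arrays 16 of the 26 had a lower and 10 a higher value in *Id2*-/- samples, with a median of -0.19, against 39.6% of all tested probes lower and a median of 0.04.

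The junction genes varied less among the *Id2*-/- arrays, with a median SD of 0.43, than among the *Id2*+/+ arrays, with a median SD of 0.75, and the SD was the smaller one in *Id2*-/- for 18 of the 26, against 56.1% of all tested probes. Over all tested probes the median SD was 0.33 among the *Id2*-/- arrays and 0.41 among the *Id2*+/+ arrays. The summed signal of the 44 junction probes was 730 to 763 times the array median on the *Id2*-/- arrays, and 510, 1100.0 and 1256 times on the *Id2*+/+ arrays numbered 1, 2 and 3. A few bright probes make up most of this sum. *Epcam* weighs most, at a log2 signal of 7.81 to 8.07 on the *Id2*-/- and 7.06 to 8.89 on the *Id2*+/+ arrays.

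**Figure D2:**
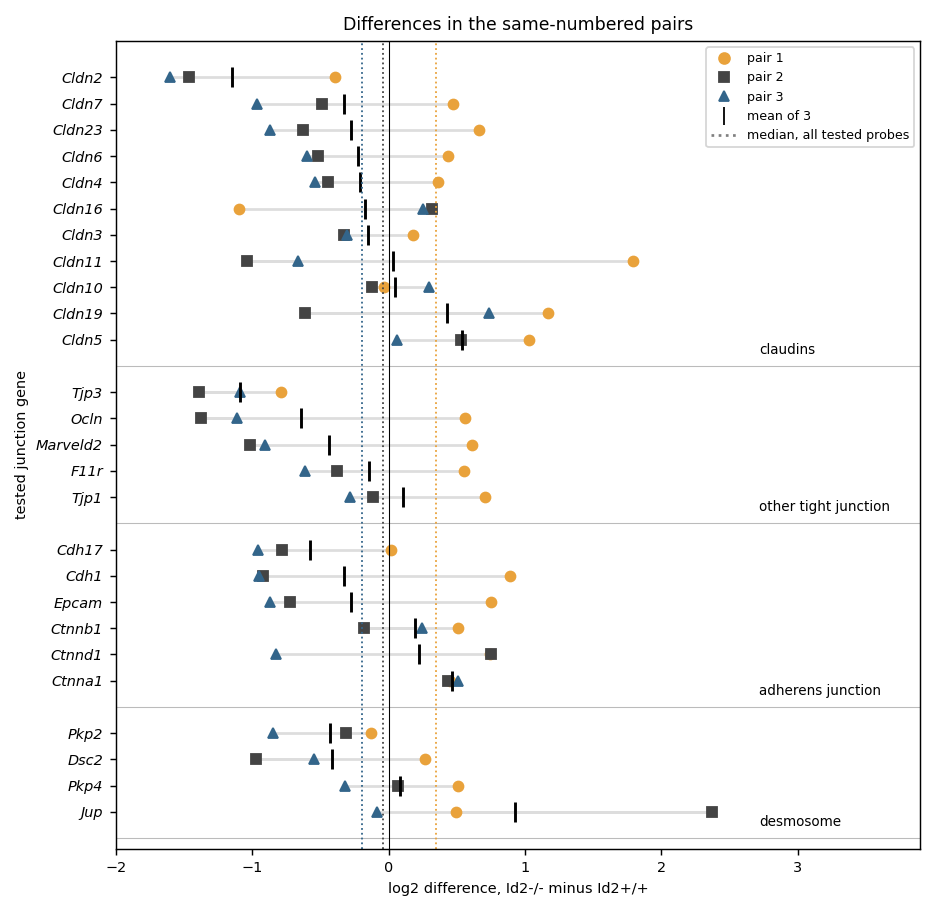
Log2 difference, *Id2*-/- minus *Id2*+/+ (horizontal axis), of the 26 tested junction genes (vertical axis, by group) in the pairs of arrays numbered 1, 2 and 3, with a black tick at the mean of the 3 and dotted lines at the median of all tested probes in each pair. The differences of pair 1 lie above 0 for 21 genes and those of pairs 2 and 3 below 0 for 20 genes each, and *Jup* has its pair 2 at 2.37.

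None of the 6 genes grouped here with the adherens junction passed the test, with or without the block. *Cdh1* encodes E-cadherin, the classical cadherin of epithelia. It was at 5.55, 6.16 and 6.27 on the *Id2*-/- arrays and at 4.66, 7.08 and 7.22 on the *Id2*+/+ arrays, so each *Id2*-/- array lay between the lowest and the other *Id2*+/+ arrays. The difference was 0.89, -0.92 and -0.95 in the pairs and -0.33 between the means (standard error 0.67, limma adjusted p = 1 with and without the block). *Epcam*, which encodes a cell adhesion molecule of simple epithelia that stabilizes claudins in the intestine, had the same order, with 7.81, 8.07 and 8.02 on the *Id2*-/- arrays and 7.06, 8.79 and 8.89 on the *Id2*+/+ arrays. *Cdh17* encodes the cadherin that is most restricted to the intestine and is known as LI-cadherin. It was at 3.75, 3.94 and 4.36 on the *Id2*-/- arrays and at 3.73, 4.72 and 5.32 on the *Id2*+/+ arrays, with differences of 0.02, -0.78 and -0.96 in the pairs, and did not pass limma with the block (adjusted p = 0.605).

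The catenins link classical cadherins such as E-cadherin to actin and regulate their turnover. *Ctnna1*, which encodes alpha-catenin, gave 3.99, 0.93 and 0.87 on the *Id2*-/- arrays and 3.53, 0.50 and 0.35 on the *Id2*+/+ arrays, the last of these below background. Its difference was nearly equal in the 3 pairs, at 0.45, 0.44 and 0.51, and did not pass (limma adjusted p = 1, and 0.989 with the block). In both genotypes the array numbered 1 lay far above the other 2, and the genotypes overlap through that array. *Ctnna1* entered the test only through the *Id2*-/- arrays, where it was the higher, so its direction supports nothing. *Ctnnb1*, which encodes beta-catenin of the junction and of Wnt signaling, differed by 0.51, -0.18 and 0.24. *Ctnnd1*, which encodes p120-catenin, differed by 0.74, 0.75 and -0.82 and was below background on the *Id2*+/+ array numbered 2.

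None of the 5 tested genes among the other tight junction genes passed the test without the block. *Ocln* encodes occludin, a membrane protein of the strands. It was at 3.495, 3.05 and 3.42 on the *Id2*-/- arrays and at 2.93, 4.42 and 4.54 on the *Id2*+/+ arrays, a difference of 0.56, -1.37 and -1.11 in the pairs and of -0.64 between the means (standard error 0.45). *Marveld2* encodes tricellulin, which seals the points where 3 cells meet. It was at 3.43, 4.10 and 4.23 on the *Id2*-/- arrays and at 2.82, 5.12 and 5.14 on the *Id2*+/+ arrays, so the *Id2*-/- arrays again lay between the lowest *Id2*+/+ array and the other 2. *Ocln* and *Marveld2* are neighbors in the genome. *F11r*, which encodes the junctional adhesion molecule JAM-A, stayed within 3.82 to 4.07 on the *Id2*-/- arrays, inside the 3.51 to 4.497 of the *Id2*+/+ arrays. *Tjp1*, which encodes ZO-1, differed by 0.71, -0.11 and -0.28. All 5 tested genes of this group were lower in pairs 2 and 3, and their median difference was 0.56, -1.01 and -0.91 in the 3 pairs. Of these, *Tjp3* passed limma with the block and *Ocln* did not (adjusted p = 0.397).

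No claudin passed the test without the block, and *Cldn2* alone passed with it. *Cldn3*, *Cldn4*, *Cldn6*, *Cldn7* and *Cldn23* were each higher in pair 1 and lower in pairs 2 and 3, as were 40.1% of all tested probes. *Cldn7*, which encodes a claudin that binds Epcam and is needed for the integrity of the intestinal epithelium, was at 6.42, 6.37 and 6.42 on the *Id2*-/- arrays, with an SD of 0.025, and at 5.94, 6.86 and 7.38 on the *Id2*+/+ arrays. *Cldn4*, a claudin of many simple epithelia, differed by 0.36, -0.45 and -0.54, and *Cldn3*, whose gene lies beside it, by 0.18, -0.32 and -0.30. *Cldn6*, a claudin of embryonic epithelia, differed by 0.43, -0.52 and -0.59, and *Cldn23* by 0.67, -0.63 and -0.87. The median of the 11 tested claudins was 0.43, -0.49 and -0.54 in the pairs. None of these 5 was called in either fit.

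Some claudins are known from cells other than gut epithelium. *Cldn5*, the main claudin of endothelial cells, was at 5.35, 4.13 and 3.67 on the *Id2*-/- arrays and at 4.32, 3.59 and 3.61 on the *Id2*+/+ arrays. It was higher in all 3 pairs, by 1.03, 0.53 and 0.06, and did not pass limma (difference 0.54, standard error 0.46, adjusted p = 1, and 0.714 with the block). Leaving out the *Id2*-/- array numbered 1 reduced the difference to 0.059. Of 10 endothelial markers 9 were tested, with a median difference of 1.09, 0.25 and -0.09 in the same pairs and a summed signal of 124 to 154 on the *Id2*-/- and 67.8 to 135 on the *Id2*+/+ arrays, and each of the 10 was above background on at least one array. Their part in the value of *Cldn5* was not tested. *Cldn19*, a claudin known from the kidney and from myelin, was at 1.76, 0.48 and 1.61 on the *Id2*-/- and at 0.59, 1.10 and 0.87 on the *Id2*+/+ arrays, with *Id2*-/- arrays on both sides of all *Id2*+/+ arrays. *Cldn11*, known from myelin and the testis, was above background on 1 *Id2*-/- and all 3 *Id2*+/+ arrays and differed by 1.79, -1.04 and -0.67. *Cldn16* of the kidney differed by -1.10, 0.32 and 0.25, and the tested probe of *Cldn10* by -0.03, -0.12 and 0.30.

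Of the desmosome genes 4 of 12 were tested. *Jup* encodes plakoglobin, a catenin shared by desmosomes and adherens junctions. It gave 2.83, 0.43 and 0.60 on the *Id2*-/- arrays and 2.34, -1.94 and 0.69 on the *Id2*+/+ arrays, where the array numbered 2 was below background and below every other array. The difference was 0.49, 2.37 and -0.09 in the pairs and 0.93 between the means (standard error 1.11, limma adjusted p = 1, and 0.0385 with the block). The block p-value uses the standard error shared by all probes, not the spread of these pair differences. *Jup* entered the test only through the *Id2*-/- arrays, where its mean was the higher. The large difference of pair 2 is against a value not above background, so the call is given as a description. Without the *Id2*+/+ array numbered 2 it was -0.23, so the direction rests on that array, and with an offset of 50% of the median it was 0.56. *Pkp2*, which encodes a plakophilin of simple epithelia and heart, was at 2.03, 2.50 and 2.20 on the *Id2*-/- arrays and at 2.16, 2.81 and 3.04 on the *Id2*+/+ arrays, lower in each pair by -0.13, -0.31 and -0.85. *Dsc2*, which encodes the desmocollin of simple epithelia, was at 1.602, -0.04 and 0.15 on the *Id2*-/- arrays and at 1.33, 0.93 and 0.70 on the *Id2*+/+ arrays. *Pkp4* was at 2.94, 4.06 and 3.69 on the *Id2*-/- and at 2.43, 3.995 and 4.01 on the *Id2*+/+ arrays. Of these 4 only *Jup* was called with the block.

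The arrays numbered 1 differed from the others in both genotypes, in opposite directions for different junction genes. *Ctnna1*, *Ctnnd1* and *Jup* were at least 2 log2 units higher on the array numbered 1 than on the mean of arrays 2 and 3 in both genotypes, as were 2.01% of all tested probes. For *Ctnna1* this was 3.09 in *Id2*-/- and 3.11 in *Id2*+/+ samples, and for *Ctnnd1* it was 3.42 in *Id2*-/- and 2.64 in *Id2*+/+ samples. *Ctnnb1*, at 1.83 in *Id2*-/- and 1.35 in *Id2*+/+ samples, stood on the same side. *Cdh1* lay on the other side, at -0.67 in *Id2*-/- and -2.49 in *Id2*+/+ samples, and *Epcam* at -0.24 in *Id2*-/- and -1.78 in *Id2*+/+ samples. *Cldn23*, at -1.52 in *Id2*-/- and -2.94 in *Id2*+/+ samples, was the 1 junction gene at least 1 log2 unit lower on the array numbered 1 in both genotypes, as were 3.34% of all tested probes. Over the 26 genes the array numbered 1 lay lower for 13 in *Id2*-/- and for 17 in *Id2*+/+ samples. The share of all tested probes that lay lower was not counted. The median of this contrast over all tested probes was 0.12 in *Id2*-/- and -0.28 in *Id2*+/+ samples. Over the 26 genes it was -0.03 in *Id2*-/- and -0.77 in *Id2*+/+ samples. No source used here says what samples of the same number have in common, and its part in these values was not tested.

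**Figure D3:**
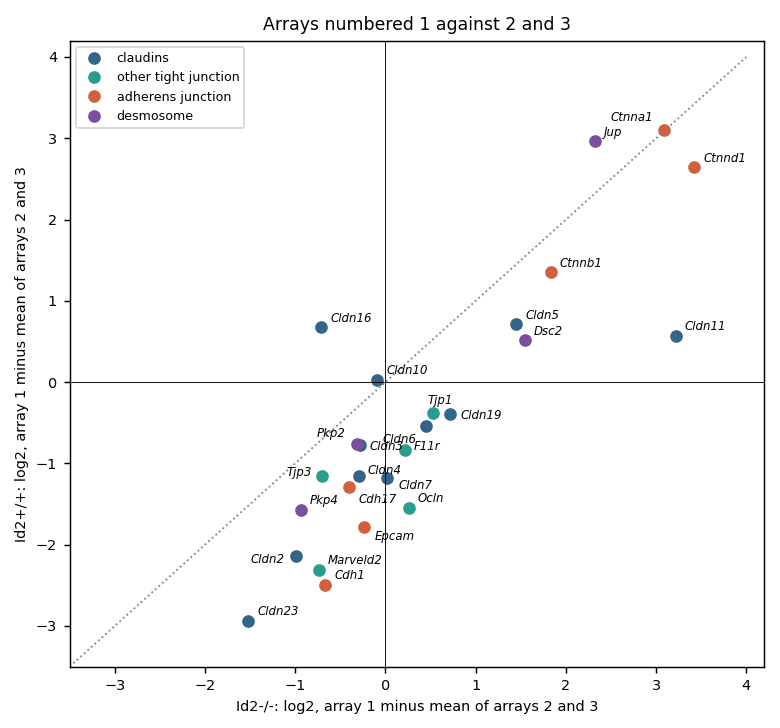
Log2 signal on the array numbered 1 minus the mean of the arrays numbered 2 and 3, for the *Id2*-/- arrays (horizontal axis) and the *Id2*+/+ arrays (vertical axis), 1 point per tested junction gene, colored by group, with a dotted line of equal values. *Ctnna1*, *Ctnnd1* and *Jup* lie above 2 on both axes, while *Cdh1* lies at -0.67 on the *Id2*-/- axis and -2.49 on the *Id2*+/+ axis.

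The median differences of epithelial markers that encode no junction protein were close to those of the junction genes. Of 24 such markers 17 had a probe and 14 were tested, with a median difference of 0.48, -0.44 and -0.82 in the 3 pairs, where the junction genes had 0.50, -0.47 and -0.60. Their summed signal was 532 to 583 on the *Id2*-/- arrays and 447 to 962 on the *Id2*+/+ arrays, and *Cdx1* and *Grhl1* were above background on no array. Limma called 0 of the 14, with the block or without it, and 1 had an unadjusted p under 0.05 in each fit. *Vil1*, which encodes villin of the brush border, was tested and above background on all 6 arrays. The same held for *Cdx2*, the homeobox factor of intestinal endoderm, so the labelled tissue carried both of these markers. The part of the epithelial markers in the junction values was not tested. Set against their median within each pair, *Cldn2* differed by -0.87, -1.02 and -0.78 and *Tjp3* by -1.27, -0.95 and -0.26. *Cdh1* differed by 0.41, -0.48 and -0.13, *Cldn7* by -0.004, -0.05 and -0.14, and *Cldn5* by 0.55, 0.97 and 0.89. *Cldn2* and *Tjp3* had the lowest differences of the 26 genes, so values under this median follow from how they were picked. The 12 tested mesenchymal markers had medians of 0.45, -0.13 and -0.27, *Thy1* was above background on no array, and their summed signal was 4629 to 8138 on the *Id2*-/- and 3694 to 8849 on the *Id2*+/+ arrays. Of 7 neural markers 5 were tested, with medians of 0.28, 0.02 and -0.06.

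**Figure D4:**
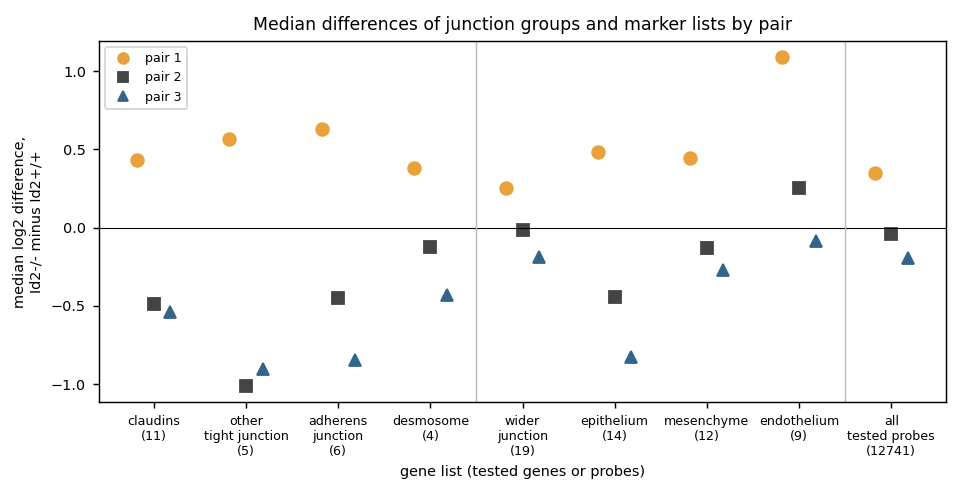
Median log2 difference, *Id2*-/- minus *Id2*+/+ (vertical axis), in the pairs numbered 1, 2 and 3 for the 4 junction groups, the wider junction list, 3 marker lists and all tested probes (horizontal axis, with the number tested). Epithelial markers and junction groups lie below all tested probes in pairs 2 and 3, with medians of -0.44 and -0.82 for the markers.

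Genes of junctions and cell polarity outside the naming rule had medians nearer to those of all tested probes. They include further cadherins and catenins, and genes known from other cells than epithelium, such as *Cdh2*, *Cdh11* and *Esam*. The 2 lists thus differ in cell type too, and the part of this in the medians was not tested. Of 45 such genes 35 had a probe and 19 were tested. Limma called 0 of them without the block, with 1 at an unadjusted p under 0.05, and 1 with the block, as lower. Their median difference was 0.25, -0.01 and -0.19, near that of all tested probes. The 1 called gene, *Cxadr*, encodes a junctional adhesion receptor of the immunoglobulin family. It was at 0.31, 0.82 and -1.06 on the *Id2*-/- arrays, above background on 1 of them, and at 0.88, 1.11 and 1.61 on the *Id2*+/+ arrays, above background on all 3. It entered the test only through the *Id2*+/+ arrays, where it was the higher, so its direction and the lack of overlap between the genotypes support nothing. The difference was -0.57, -0.29 and -2.67 in the pairs and -1.18 between the means (standard error 0.50, limma adjusted p = 1, 0.00177 with the block and 0.723 with the block and quantile normalization). The next smallest p-values were those of *Esam*, an adhesion molecule of endothelial cells, with a difference of 0.37 (standard error 0.27), and of *Lsr*, which encodes a protein of tricellular junctions, with -0.37 (standard error 0.32), and neither passed.

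The other 17 junction genes and the second probe of *Cldn10* fell short of 3 arrays over background in either genotype, and have no test. *Cldn18*, a claudin of the stomach and lung, was above background on no array, with signal-to-noise scores of -0.53, -2.65 and 1.33 on the *Id2*-/- arrays and 0.36, 0.51 and 2.80 on the *Id2*+/+ arrays. The score was under 3 on all 6 arrays for *Dsg3*, *Dsc1* and *Pkp1* as well, desmosome genes of stratified epithelia, and for *Cldn12*, *Cldn13* and *Cldn17*. *Cldn12* had log2 signals of 2.62 to 3.13 on the *Id2*-/- and 2.42 to 3.34 on the *Id2*+/+ arrays with scores no higher than 1.18, so a signal over the array median was not enough to be called above background. *Dsc3* and *Dsg4*, of stratified epithelia and hair, and *Cldn14*, known from the inner ear, each passed the limit on the *Id2*-/- array numbered 1 and on no other array, with scores of 3.0 for *Dsc3*, 4.59 for *Dsg4* and 3.1 for *Cldn14*. For *Cldn14* the genotypes did not overlap, at -0.37, -0.19 and -0.88 on the *Id2*-/- and -2.09, -0.97 and -1.39 on the *Id2*+/+ arrays, with 1 of these 6 values above background. Among tested probes 4.02% had no overlap, and the share among untested probes was not counted. *Cldn8*, *Marveld3* and *Dsg1c* passed the limit on 1 *Id2*+/+ array and on no *Id2*-/- array. *Dsg2*, the desmoglein of simple epithelia, passed on 1 *Id2*-/- and 2 *Id2*+/+ arrays, with scores of 9.73, 0.79 and 0.70 in *Id2*-/- and 8.18, 3.15 and 2.75 in *Id2*+/+ samples, and *Pkp3*, a plakophilin of most desmosomes, passed on 1 *Id2*-/- and 2 *Id2*+/+ arrays. *Cldn1*, *Cldn9* and the second *Cldn10* probe passed on 1 array of each genotype. Of 10 squamous epithelial markers 2 were tested, *Krt14* and *Krt6a*. Both reached the limit of 3 on every array except the *Id2*-/- array numbered 3, where the scores were 2.98 and 2.22. *Krt15* reached it on the arrays numbered 1 of both genotypes and on the *Id2*-/- array numbered 3. *Krt5*, *Sfn*, *Sprr1a* and *Ivl* did so in a single genotype, on 1 or 2 arrays, and *Trp63*, *Krt13* and *Sprr3* on no array.

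**Figure D5:**
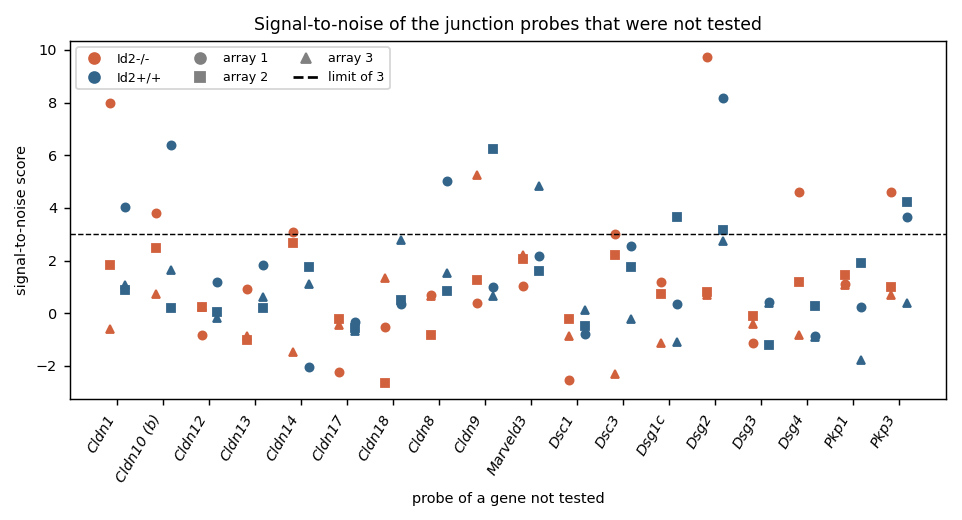
Signal-to-noise score (vertical axis) of the 18 junction probes that were not tested (horizontal axis) on the *Id2*-/- arrays (left of each gene) and the *Id2*+/+ arrays (right), with the array number as the symbol and a dashed line at the limit of 3. "Cldn10 (b)" is its second probe. *Dsg2* reaches 9.73 on the *Id2*-/- array numbered 1 and 8.18 on the *Id2*+/+ array numbered 1, and all points of *Cldn18* lie under the limit.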

How the data were processed

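Total RNA of the distal midgut was amplified for 1 round and hybridized to Applied Biosystems mouse genome survey arrays. The deposited files give, for 33012 probes, an intensity from the scanner software, the intensity divided by the authors by a constant of the array, a signal-to-noise score and a quality flag. The authors' constant equals the median intensity of the unflagged spots of each array and lay between 708 and 1010.4. No source used here gives whether a background was subtracted. The methods leave out spots by a flag under 5000, whereas spots with flags from 5000 upward were left out here, the reverse of that wording. All 44 junction probes were unflagged by this rule, the highest flag being 64.

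Genotypes were compared on log2 of the normalized intensity (limma 3.58.1, R 4.3.3) over all tested probes, without a block, at an adjusted p of 0.05. The fits were also run on simulated data with normal noise, either independent or shared within pairs. The simulation did not model the arrays numbered 1 standing apart, so it says nothing of the calls made with the block. The array numbers of the titles were taken to pair the arrays, since deviations from the genotype mean correlated between arrays of the same number (0.838, 0.644 and 0.579). The *Id2*-/- array numbered 3 correlated at 0.638 with the *Id2*+/+ array numbered 2, so the pairing mostly sets number 1 apart. With the block the prior degrees of freedom were infinite, so all probes shared a standard error of 0.275. The same held without pair 2, at 0.386, and without pair 3, at 0.342. With 3 against 3 arrays an exact permutation test cannot give a two-sided p under 0.1, and the number of arrays limits the precision.

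Gene names are those of the platform annotation, and all 44 junction probes matched a RefSeq gene by identifier. Of all probes 14411 had 1 symbol, 247 several and 18354 none. The probe that names *Dsg1a*, *Dsg1b* and *Dsg1c* together was left out. Each tested junction gene had 1 tested probe. Array values are given for *Cdh1*, *Epcam*, genes called with or without the block and the 4 largest differences of each group. A gene of the naming rule is not reported here. The members and lists were chosen with earlier results of these data known. Alternatives were quantile normalization, centring on the tested probes, other filters on dim probes, an offset, the deposited series table, the block, a trended robust prior, the methods' t-test and leaving out each array. No slide or scan information was used. Figures were drawn with matplotlib 3.10.9.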

Additional observations from a re-analysis of the deposited data

How the results depend on the processing

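The number of junction genes called was 0 under each alternative without the block. With the replicate block it was 3, among 278 probes called in all, and 0 of either once quantile normalization was added to the block or, chosen after seeing the data, centring on the tested probes. With the block and pair 1, 2 or 3 left out, alternatives chosen after seeing the data, 40, 111 and 146 probes were called in all, and 1 junction gene, *Jup* without pair 3. The cause was not tested. The median difference of the junction genes, -0.19, kept its sign under every alternative, from -0.42 to -0.01 with 1 array left out. It was -0.53 with arrays 2 and 3 alone, with and without the block, and -0.06 and -0.01 with the block and pair 2 or 3 left out.

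Leaving out 1 array gave 0 calls throughout. It moved the difference of *Cdh1* between -1.16 and 0.13, *Epcam* -0.87 and 0.045, *Cldn7* -0.72 and 0.0026, *F11r* -0.42 and 0.069, *Ctnna1* -0.56 and 1.503, *Jup* -0.23 and 1.91, and *Pkp4* -0.44 and 0.40. These 7 of the 16 genes changed sign in such a fit, which keeps the partner of the array left out, so differences between array numbers enter it. *Cldn2* stayed between -1.86 and -0.70, *Tjp3* between -1.47 and -0.70, *Ocln* between -1.16 and -0.35 and *Cdh17* between -1.002 and -0.21. *Cldn5* stayed between 0.059 and 0.90, *Cldn19* between 0.19 and 0.83, *Marveld2* between -1.20 and -0.045, *Dsc2* between -0.93 and -0.11 and *Pkp2* between -0.68 and -0.24. Without pair 3 *Epcam* was at 0.017 and *F11r* at 0.089, and without pair 1 *Pkp4* was at -0.13. No other alternative turned one of the 16 genes. Blocking on the slide or the scan was not run.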

Other observations

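Cadherins of other cells than the gut epithelium were measured on the same arrays. *Cdh2*, which encodes N-cadherin of mesenchymal and neural cells, was at 6.27, 6.36 and 6.45 on the *Id2*-/- arrays and at 6.09, 6.17 and 6.20 on the *Id2*+/+ arrays. The genotypes did not overlap, as was so for 4.02% of all tested probes and for 2 of the 19 tested genes of the wider junction list. The *Cdh2* difference was 0.18, 0.18 and 0.25 in the pairs, with a limma adjusted p of 1 with and without the block. *Cdh11*, a cadherin of mesenchyme, differed by 0.44, -0.01 and -0.11, and *Cdh3*, which encodes P-cadherin, by -0.19, 0.10 and 0.47.

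*Perp*, which encodes a membrane protein of desmosomes in stratified epithelia, was singled out after its values were seen. It was at 0.77, 0.94 and 0.35 on the *Id2*-/- arrays, above background on 2 of them, and at -0.46, -0.21 and -1.40 on the *Id2*+/+ arrays, above background on 1. The difference was 1.23, 1.16 and 1.75 in the pairs. It was not tested, since neither genotype was above background on all 3 arrays. *Gja1*, which encodes the gap junction protein connexin 43, was above background only on the arrays numbered 1, at 3.14 in *Id2*-/- and 2.79 in *Id2*+/+ samples, against -1.58 to -0.83 on the other *Id2*-/- arrays and -1.44 to -0.94 on the other *Id2*+/+ arrays.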
